A study of Mus musculus with 10 samples.

Results

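This comparison set splenic lymphoma cells with a Cre-deleted IL-10 gene against lymphoma cells of the same model that keep it, over all genes that passed a filter on low counts. Members were chosen by label: the 3 libraries labelled pBIC10 and the 3 labelled pBIC, 6 of the 10 libraries in the series, and 17718 of 46316 genes. Both groups of mice carried Cg1Cre/+ with the alleles IKK2castopF/stopF, Blimp1F/F and p53F/F, and the pBIC10 mice also carried IL-10F/F. The other 4 libraries, YC, are YFPstopF/+ Cg1Cre/+ germinal centre B cells sorted as B220+YFP+ at 10 days after a second immunisation with sheep red blood cells. They entered the fit and are given as a reference level. All mice were C57BL/6, and lymphoma cells were sorted as B220+GFP+ from spleens of moribund animals. The pBIC10 libraries came from 2 females and 1 male (replicate 3), the pBIC libraries from 3 females, and the YC libraries from 3 females and 1 male. Ages were not stated in the labels, and parts of the YC labels use the lymphomas' wording.

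In this model Cre is expressed with Cγ1 transcription, mainly by germinal centre B cells. It removes the genes of p53 and of Blimp1, the factor that drives plasma cell differentiation, and it turns on an active form of IKK2, the kinase upstream of NF-kB. The disease is a model of the ABC class of diffuse large B cell lymphoma. IL-10 is a cytokine that signals through JAK1, TYK2 and STAT3 and restrains macrophages, dendritic cells and T cells. B cells are among its sources, and lymphomas of this class can make it. Only B cells that expressed Cre lose the gene here, so IL-10 from other cells of the host was not removed by design.

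The libraries held 17.1 to 19.1 M counts in the lymphomas and 12.6 to 14.3 M in YC. For each gene described as higher or lower, the libraries of the 2 lymphoma groups did not overlap, unless an overlap is stated. Such non-overlap held for 41.8% of all genes tested and was a condition for naming genes from the lists, so nothing is read from it. A level is given in CPM (counts per M, scaled by TMM), and a log2 change is the log2 fold change of pBIC10 over pBIC ± its standard error. Sums over marker lists are the exception, in CPM of the library total without TMM. Ighv7-3 led the heavy chain variable counts of every pBIC10 library, with 67.4 to 70.5% of them, and Ighv8-11 those of every pBIC library, with 51.6 to 59.1%. Each title carries a number of its own, and yet all libraries of a lymphoma group shared the leading segment. A shared segment does not show a shared clone or tumour, and whether the libraries of a group are independent tumours was not tested. IL-10 status and the leading segment cannot be told apart. The pBIC10 libraries are of this series, while those of pBIC and YC were taken from an earlier one, so series and group cannot be told apart either. Adjusted p-values measure the spread among these libraries alone, and would be too small where libraries share a tumour.

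Of the targeted gene, Il10 counts stood at 2.71, 1.99 and 4.77 CPM in pBIC10 and 19.4, 6.84 and 8.78 CPM in pBIC (log2 change -1.88 ± 0.46, adjusted p = 0.00809), and counts outside a deleted part would not check the deletion. The sorted cells carried B cell markers at 2990 to 4850 CPM summed over 10 genes in pBIC10, 2300 to 4270 in pBIC and 9070 to 10800 in YC, with none at 0. Of these 10 genes, 4 were called higher and 1 lower in pBIC10, with log2 changes from -0.75 to 4.24 over the list. The overlap of the sums thus does not show equal levels of each B cell marker. Other marker lists were lower in sum in pBIC10 for NK cells (1.52 to 4.27 against 9.58 to 30.9 CPM, 4 of 10 genes called lower, Klra8 and Klre1 at 0 in pBIC10), macrophages and dendritic cells (46.2 to 63.2 against 145 to 213 CPM, 3 of 18), plasma cells (462 to 485 against 827 to 1240 CPM, 5 of 10) and stromal and endothelial cells (85.2 to 104 against 162 to 182 CPM, 2 of 6 tested lower and 1 higher, Ccl21a and Kdr at 0 in pBIC10). T cell markers summed to 50.04 to 73.09 CPM in pBIC10 and 59.8 to 102 in pBIC, with 13 of 16 lower and 2 higher (1 higher without pBIC replicate 2 or 3 or pBIC10 replicate 2). In the stromal and endothelial list, Col3a1 and Pdgfra were at 0 in pBIC. The lower stromal markers were Madcam1 (log2 change -7.40 ± 0.97, adjusted p = 1.89e-04) and Ccl19 (232-fold lower with a 95% counting interval of 63.8 to 1918, adjusted p = 2.32e-04). The higher one was Cdh5 (log2 change 2.39 ± 0.78, adjusted p = 0.0328), with overlap of the groups. Its call was lost with the 2 lymphoma groups alone and without pBIC10 replicate 1 or 2 or pBIC replicate 2 or 3. The macrophage and dendritic cell count was 7 without pBIC replicate 1 or 3 and 1 without pBIC10 replicate 1 or 2. Erythroid markers summed to 682 to 1630 CPM in pBIC10 and 36.5 to 693 in pBIC, with 0 of 14 called (5 at an unadjusted p under 0.05 by edgeR, 1 by DESeq2 and 5 by limma-voom). Without pBIC replicate 3, 5 were called higher. In such bulk libraries fewer cells of a type and less RNA per cell cannot be told apart. The plasma cell list includes Prdm1, the Blimp1 gene that the model deletes. Whether the plasma cell sum comes from the lymphoma cells or from other cells was not tested.

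Of the 17718 genes tested, 5440 were called changed (30.7%, edgeR's quasi-likelihood test with Benjamini-Hochberg adjustment, adjusted p under 0.05). Of these, 2766 were higher (15.6%) and 2674 lower (15.1%) in pBIC10. Among them 1863 (10.5% of tested genes) differed at least 4-fold. With this many genes called, the share of any gene list has to be read against 30.7% and its median against the median of all genes, -0.01. The share called among 30 lists of surface molecules, pathways and transcription factor families ranged from 23.9% (BTB zinc finger factors) to 55.3% (TGF-beta, BMP and activin signalling). The signalling lists leaned to the higher side and the tetraspanin, redox, lectin and ectoenzyme lists to the lower side.

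**Figure D1:**
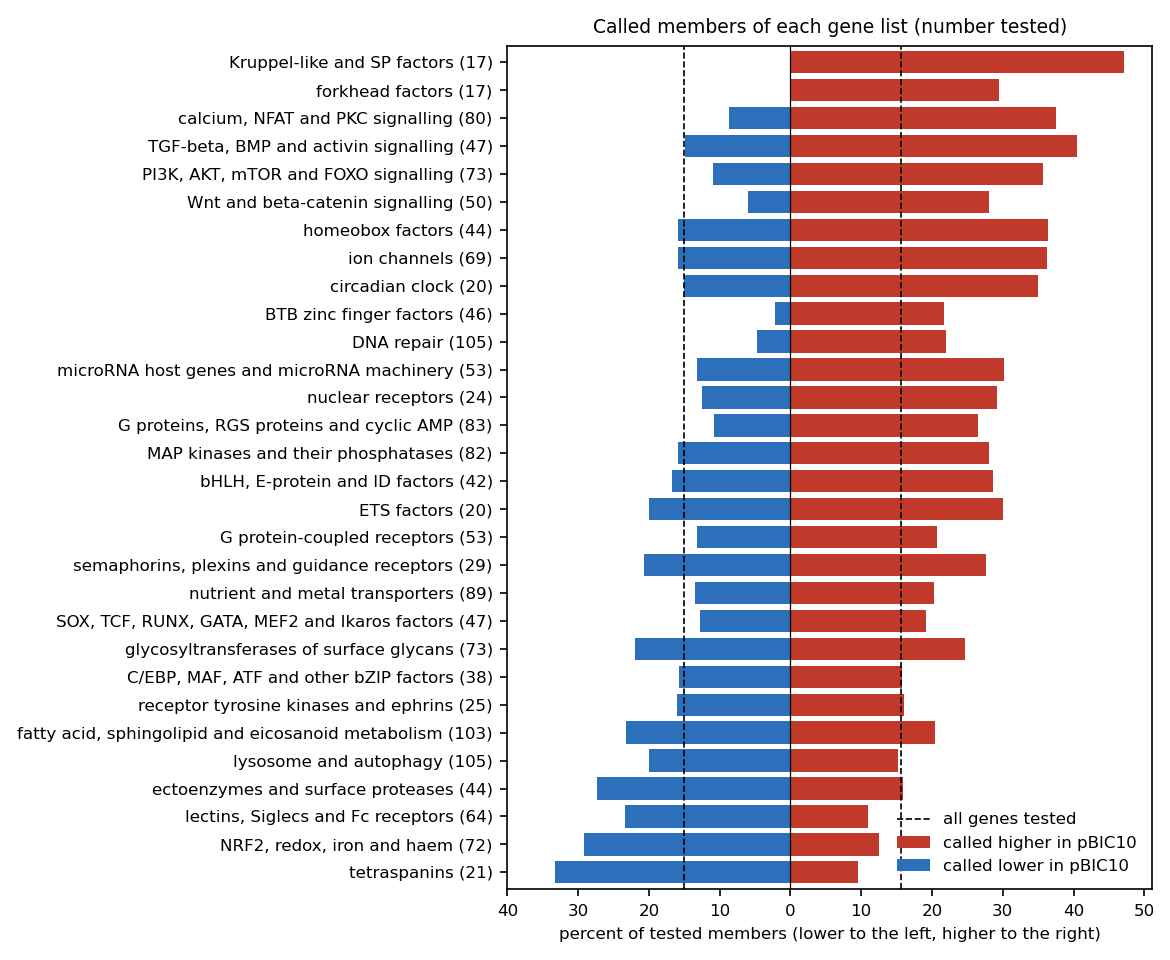
Percent of tested members called higher (red, right) or lower (blue, left) in pBIC10 for each of 30 gene lists, with the number tested in parentheses; dashed lines mark the 15.6% higher and 15.1% lower of all genes tested. The Kruppel-like and SP factors had 8 of 17 members higher and 0 lower, and the tetraspanins 2 of 21 higher and 7 lower.

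The largest rises were of genes with almost no counts in pBIC. Galnt14, an enzyme that starts mucin-type O-glycans, stood at 51.7, 49.4 and 47.2 CPM in pBIC10 and 0 CPM in the 3 pBIC libraries (at least 904-fold higher, adjusted p = 1.01e-07). A gene with 0 counts in a group was set against a bound of 3 counts over that group. Etv1, an ETS transcription factor, stood at 30.8, 30.8 and 27.6 CPM in pBIC10 and 0 CPM in the 3 pBIC libraries (at least 543-fold higher, adjusted p = 7.66e-06). Both were even across the 3 pBIC10 libraries, and the YC means were 1.22 and 0.82 CPM. Robo1, a receptor for Slit guidance cues, stood at 40.4, 51.8 and 13.9 CPM in pBIC10 and 0 CPM in the 3 pBIC libraries (at least 630-fold higher, adjusted p = 6.33e-06). Plk2, a polo-like kinase, differed from these because it was abundant in YC. It stood at 82.1, 60.9 and 93.7 CPM in pBIC10 and 0.107, 0 and 0.0536 CPM in pBIC, against 33.1, 71.7, 125 and 113 CPM in YC, so pBIC was the group that stood apart. Its ratio was 1459-fold higher with a 95% counting interval of 499 to 7077, adjusted p = 2.91e-06.

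Several of the 15 largest rises were uneven within pBIC10. Dlk1, a membrane protein with EGF repeats that holds back adipocyte differentiation, stood at 1074, 1019 and 39.7 CPM in pBIC10 and 0, 0.17 and 0.0536 CPM in pBIC (log2 change 13.11 ± 1.46, adjusted p = 6.22e-05). Kcnj5, an inward-rectifier potassium channel subunit, stood at 50.7, 58.7 and 1.85 CPM in pBIC10 and 0 CPM in the 3 pBIC libraries (at least 650-fold higher, adjusted p = 8.59e-04). In both, replicate 3 was far below the other two and still above every pBIC library. Kcnk1, another potassium channel, went the other way, with replicate 3 the highest at 11.7, 9.02 and 79.2 CPM in pBIC10 and 0, 0 and 0.0536 CPM in pBIC. Clmn, an actin-binding membrane protein, stood at 167, 182 and 79 CPM in pBIC10 and 0, 0.0565 and 0.161 CPM in pBIC (log2 change 10.79 ± 0.77, adjusted p = 3.11e-06). Of 11522 genes with a mean of at least 5 CPM over the 6 lymphoma libraries, replicate 3 of pBIC10 was at least 4-fold below both others in 61 and at least 4-fold above both in 29. Replicate 1 was so in 30 and 17, and replicate 2 in 0 and 0. Among pBIC libraries, replicate 1 was below in 4 and above in 33, replicate 2 in 33 and 5, and replicate 3 in 45 and 28. Replicate 3 of pBIC10 is also the male, and the part of sex in these genes was not tested within the group.

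The largest falls included receptors, a chemokine and enzymes. Slamf8, a SLAM family receptor known from macrophages, stood at 0 CPM in the 3 pBIC10 libraries and 31.7, 65.7 and 8.62 CPM in pBIC (at least 621-fold lower, adjusted p = 1.30e-04). Cxcr3, a receptor for chemokines that interferons induce, stood at 0.413, 0.234 and 0.205 CPM in pBIC10 and 38.7, 223 and 29.99 CPM in pBIC (log2 change -8.40 ± 1.02, adjusted p = 1.17e-04). Its ligand Cxcl9 stood at 0.413, 0.117 and 0.0513 CPM in pBIC10 and 42, 85.6 and 4.66 CPM in pBIC (log2 change -7.81 ± 1.24, adjusted p = 6.98e-04). The receptor and the ligand were thus both at most 0.413 CPM in every pBIC10 library. Markers of macrophages and dendritic cells and of NK cells were also lower in sum in pBIC10, as given above. Of 16 T cell markers, 13 were lower and 2 higher. The part of such cells in Slamf8, Cxcr3 and Cxcl9 was not tested. Pip5k1b, a kinase that makes the membrane lipid PIP2, stood at 0.118, 0.469 and 0.769 CPM in pBIC10 and 58.1, 129 and 93 CPM in pBIC (log2 change -7.63 ± 0.62, adjusted p = 7.07e-06), and its YC mean of 1.73 CPM was also far below pBIC. Gstt1, a glutathione transferase, stood at 0.059, 0.176 and 2.26 CPM in pBIC10 and 348, 475 and 321 CPM in pBIC, and Serpinb6b, a protease inhibitor, at 1.59, 0.937 and 2.41 CPM in pBIC10 and 761, 1071 and 139 CPM in pBIC. The last 2 genes and Xlr, at 0, 0.0586 and 0 CPM in pBIC10 and 4.61, 5.82 and 5.19 CPM in pBIC, have close paralogs, and 50-nt reads may be split among such copies.

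**Figure D2:**
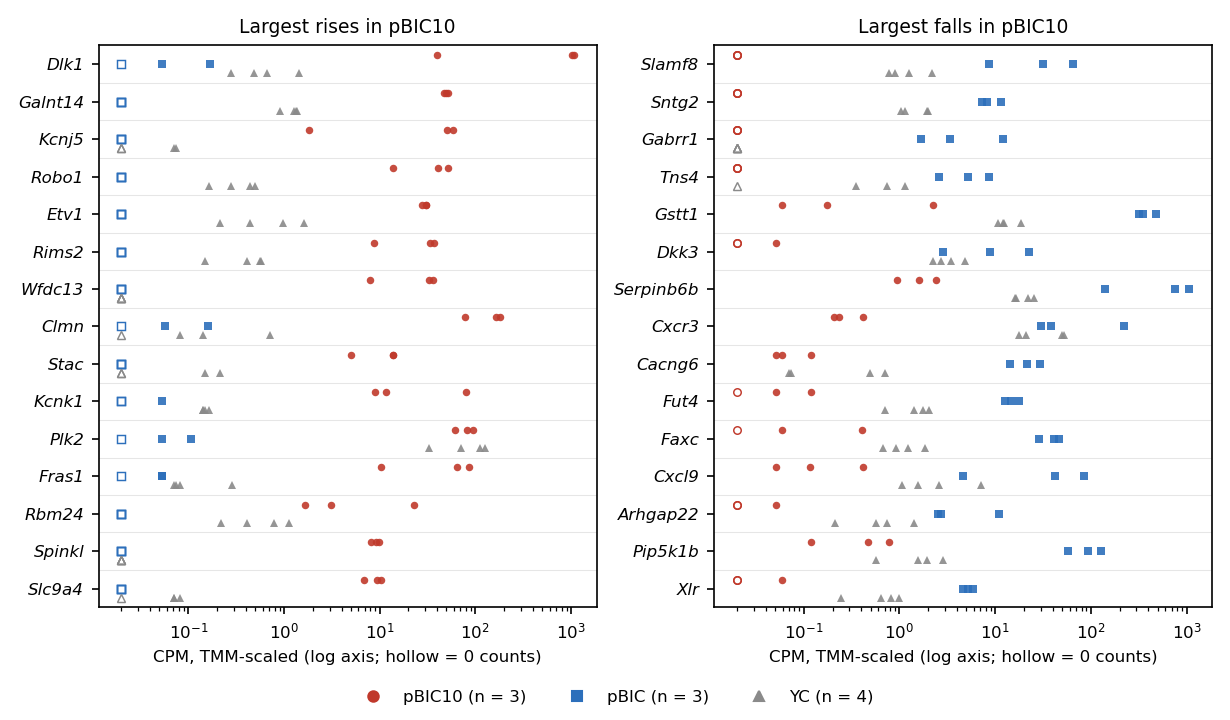
CPM of the 15 largest rises (left) and 15 largest falls (right) in pBIC10, 1 point per library on a log axis (red circles pBIC10, blue squares pBIC, grey triangles YC; hollow points mark 0 counts and are placed at the left edge). Plk2 has YC libraries at the pBIC10 level, and Dlk1 and Kcnj5 show 1 pBIC10 library far from the other two.

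Among the surface molecules, receptors that read soluble cues are described first. Of 53 tested G protein-coupled receptors, 11 were higher and 7 lower (34.0% called, median -0.12), a share near the background. Lpar6, a receptor for lysophosphatidic acid, stood at 14.7, 18.1 and 15.6 CPM in pBIC10 and 0.482, 0.0565 and 0.107 CPM in pBIC (log2 change 6.17 ± 0.55, adjusted p = 6.33e-06). Gpr171 stood at 22, 23.1 and 42.3 CPM in pBIC10 and 0.375, 0.509 and 0.535 CPM in pBIC (log2 change 5.92 ± 0.37, adjusted p = 4.77e-07), and its YC mean of 27.8 CPM lay at the pBIC10 level. The next receptors were lower, and the first of these were close to 0 in pBIC10. Cysltr2, a receptor for cysteinyl leukotrienes, stood at 0.059, 0 and 0.154 CPM in pBIC10 and 4.02, 2.26 and 1.34 CPM in pBIC (log2 change -4.97 ± 0.79, adjusted p = 4.65e-04). Gpr34, a receptor for lysophosphatidylserine, stood at 0, 0.176 and 0.359 CPM in pBIC10 and 3.16, 4.69 and 2.46 CPM in pBIC (log2 change -4.17 ± 0.83, adjusted p = 0.00223). Hrh2, a histamine receptor, stood at 6.49, 10.4 and 11.7 CPM in pBIC10 and 29.5, 21.8 and 26.5 CPM in pBIC (log2 change -1.44 ± 0.37, adjusted p = 0.0101). Gpr65, a proton sensor, stood at 39.4, 42.5 and 38.5 CPM in pBIC10 and 68.6, 109 and 58.8 CPM in pBIC (log2 change -0.97 ± 0.24, adjusted p = 0.00735). The last of these differed least, with its pBIC10 libraries within a narrow range. The counts of this list were not stable: 7 were higher without pBIC replicate 2, 11 lower without pBIC replicate 3, and 4 lower without pBIC10 replicate 2 or 3.

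Ephrins and Eph receptors, which signal in both directions at cell contacts, changed in both directions. The receptor tyrosine kinases and ephrins had 4 of 25 higher and 4 lower (32.0%, median 0.07). Efnb1, an ephrin ligand, stood at 24.9, 28.3 and 9.02 CPM in pBIC10 and 1.18, 0.565 and 0.214 CPM in pBIC (log2 change 4.97 ± 0.61, adjusted p = 1.17e-04). Efna1, another ligand, stood at 1.71, 1.87 and 1.999 CPM in pBIC10 and 0 CPM in the 3 pBIC libraries (at least 34.3-fold higher, adjusted p = 1.67e-04). The receptor Epha4 stood at 1.36, 1.82 and 1.9 CPM in pBIC10 and 0 CPM in the 3 pBIC libraries (at least 31.2-fold higher, adjusted p = 4.63e-04). Both of the latter were low in absolute level and seen in every pBIC10 library. Ephb4, a receptor for B-class ephrins, was lower, with 0.59, 0.293 and 0.41 CPM in pBIC10 and 13.8, 7.01 and 15 CPM in pBIC (log2 change -4.77 ± 0.54, adjusted p = 3.41e-05). Tyro3, a receptor of the TAM family that recognises dying cells through bridging proteins, stood at 0.885, 0.117 and 0.769 CPM in pBIC10 and 5.36, 5.77 and 20.2 CPM in pBIC (log2 change -4.12 ± 0.67, adjusted p = 5.65e-04). Insrr, a relative of the insulin receptor, stood at 0.885, 0.586 and 0.769 CPM in pBIC10 and 36.7, 15.4 and 11.2 CPM in pBIC (log2 change -4.81 ± 0.70, adjusted p = 2.93e-04). All 3 lower receptors named were also low in YC. Ryk, a Wnt co-receptor, was not called (log2 change 0.32 ± 0.21, adjusted p = 0.273).

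Lectins, Siglecs and Fc receptors leaned lower, with 15 of 64 lower and 7 higher (34.4%, median -0.53). Cd300lf, an inhibitory receptor that binds lipids, stood at 3.36, 2.52 and 4.87 CPM in pBIC10 and 59.1, 43 and 38.8 CPM in pBIC (log2 change -3.71 ± 0.36, adjusted p = 1.18e-05). Fcrl1, an Fc receptor-like protein of B cells, stood at 39, 37.7 and 28.3 CPM in pBIC10 and 142, 128 and 75.6 CPM in pBIC (log2 change -1.72 ± 0.23, adjusted p = 1.45e-04). Fcrl1 in pBIC lay at or below the YC level, while Cd300lf in pBIC lay above it. Clec12a, an inhibitory lectin, stood at 0.708, 0.293 and 0.974 CPM in pBIC10 and 11.2, 12.2 and 3.27 CPM in pBIC (log2 change -3.72 ± 0.51, adjusted p = 1.69e-04). The IgG receptor Fcgr4 stood at 1.003, 0.879 and 0.974 CPM in pBIC10 and 15, 9.55 and 3.11 CPM in pBIC (log2 change -3.26 ± 0.51, adjusted p = 4.31e-04). Macrophages and dendritic cells also express Cd300lf, Clec12a and Fcgr4. The macrophage and dendritic cell marker sum was 46.2 to 63.2 CPM in pBIC10 and 145 to 213 in pBIC, and its part in these genes was not tested. Fcer2a (CD23), the low-affinity IgE receptor of follicular B cells, was higher, at 9.56, 8.96 and 5.74 CPM in pBIC10 and 0.965, 1.24 and 1.02 CPM in pBIC (log2 change 2.90 ± 0.28, adjusted p = 1.16e-05), though far below the YC mean of 592 CPM. The galectins Lgals1 (247, 202 and 98 CPM in pBIC10 and 42.3, 70.9 and 34.2 CPM in pBIC, log2 change 1.89 ± 0.34, adjusted p = 0.00146) and Lgals3 (62.8, 56.3 and 13.8 CPM in pBIC10 and 2.89, 6.61 and 8.94 CPM in pBIC, log2 change 2.85 ± 0.54, adjusted p = 0.00208), secreted proteins that bind galactosides, were higher as well. Cd22, an inhibitory Siglec of B cells, was not called (log2 change -0.30 ± 0.33, adjusted p = 0.522).

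Tetraspanins organise receptors into membrane domains, and 7 of 21 were lower and 2 higher (42.9%, median -0.22). Tspan3 stood at 46.2, 40.4 and 42.7 CPM in pBIC10 and 85.6, 140.4 and 130.3 CPM in pBIC (log2 change -1.46 ± 0.21, adjusted p = 2.03e-04). Tspan32, a tetraspanin of blood cells, stood at 10.3, 9.72 and 9.28 CPM in pBIC10 and 31.3, 24 and 40.9 CPM in pBIC (log2 change -1.71 ± 0.24, adjusted p = 1.61e-04). Cd82, known as a metastasis suppressor, stood at 12.8, 13 and 7.997 CPM in pBIC10 and 37.5, 52.1 and 20.3 CPM in pBIC (log2 change -1.70 ± 0.29, adjusted p = 8.27e-04). Among these, Cd82 came closest to overlap, through pBIC replicate 3. Tspan4 was higher, with 18.6, 12.6 and 4.97 CPM in pBIC10 and 1.82, 2.83 and 2.78 CPM in pBIC (log2 change 2.28 ± 0.48, adjusted p = 0.00333). Cd37, the abundant B cell tetraspanin, was not called (log2 change -0.45 ± 0.25, adjusted p = 0.186). Among semaphorins, plexins and other guidance receptors, 8 of 29 were higher and 6 lower (48.3%, median -0.02). Nrp2, a co-receptor for semaphorins and VEGF-C, stood at 184, 219 and 195 CPM in pBIC10 and 96.7, 47.9 and 61.4 CPM in pBIC (log2 change 1.54 ± 0.32, adjusted p = 0.00312). Of the plexins, Plxnc1, the receptor of semaphorin 7A, was lower at 21.2, 29 and 7.64 CPM in pBIC10 and 133, 105 and 48.8 CPM in pBIC (log2 change -2.31 ± 0.44, adjusted p = 0.0022). Plxnd1, that of semaphorin 3E, was also lower, at 3.83, 3.05 and 7.64 CPM in pBIC10 and 52.5, 11.9 and 13.6 CPM in pBIC (log2 change -2.42 ± 0.57, adjusted p = 0.00752). In both plexins pBIC10 was below every YC library. Sema3g was at 0 counts in pBIC (1.83, 2.11 and 5.13 CPM in pBIC10 and 0 CPM in the 3 pBIC libraries, at least 57.2-fold higher, adjusted p = 5.05e-04).

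Ectoenzymes and surface proteases leaned lower, with 12 of 44 lower and 7 higher (43.2%, median -0.14), and 4 higher without pBIC10 replicate 1. Cpd, a membrane carboxypeptidase, stood at 11.2, 17.4 and 27.2 CPM in pBIC10 and 153, 101 and 71 CPM in pBIC (log2 change -2.54 ± 0.39, adjusted p = 4.88e-04), while its relative Cpm stood at 11.5, 26.8 and 13.4 CPM in pBIC10 and 0.161, 0.0565 and 0.268 CPM in pBIC (log2 change 6.66 ± 0.49, adjusted p = 1.56e-06). The 2 carboxypeptidases therefore changed in opposite directions. Adam17, the protease that releases TNF and other surface ligands, stood at 45.3, 45.1 and 59.3 CPM in pBIC10 and 133, 116 and 89.3 CPM in pBIC (log2 change -1.18 ± 0.20, adjusted p = 6.61e-04). Adam9, of the same family, stood at 179, 164 and 164 CPM in pBIC10 and 109, 75.3 and 76.3 CPM in pBIC (log2 change 0.96 ± 0.17, adjusted p = 0.00117). Both ADAM genes changed by less than the carboxypeptidases did. Prnp, the prion protein gene, changed by -2.95 ± 0.42 (adjusted p = 2.06e-04).

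Ion channels were the surface list with the highest share called, 25 of 69 higher and 11 lower (52.2%, median 0.31). The T-type calcium channels Cacna1h and Cacna1i, which open near resting voltage, were both higher. Cacna1h stood at 54.9, 87.9 and 23.2 CPM in pBIC10 and 2.79, 2.83 and 4.93 CPM in pBIC (log2 change 3.97 ± 0.45, adjusted p = 7.00e-05). Cacna1i stood at 59.2, 69.6 and 14.9 CPM in pBIC10 and 1.98, 0.848 and 1.18 CPM in pBIC (log2 change 5.15 ± 0.57, adjusted p = 6.09e-05). YC means were 141 and 67.5 CPM, so pBIC was the low group for both. Trpm2, a calcium-permeable channel that oxidative stress opens through ADP-ribose, stood at 11.9, 11.8 and 11.1 CPM in pBIC10 and 0.804, 0.961 and 0.214 CPM in pBIC (log2 change 4.13 ± 0.46, adjusted p = 3.07e-05). On the lower side, Ano10 of the anoctamin family stood at 2.48, 4.04 and 3.64 CPM in pBIC10 and 15.4, 14 and 10.6 CPM in pBIC (log2 change -1.97 ± 0.27, adjusted p = 1.42e-04). Its pBIC level was near that of YC. Ryr1, a calcium release channel, stood at 6.08, 10.7 and 5.13 CPM in pBIC10 and 22.4, 25.4 and 15.3 CPM in pBIC (log2 change -1.53 ± 0.31, adjusted p = 0.00232).

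Nutrient and metal transporters had 18 of 89 higher and 12 lower (33.7%, median 0.14), near the background share. Slc25a37, which imports iron into mitochondria, stood at 214, 239 and 196 CPM in pBIC10 and 62.5, 43.6 and 66.7 CPM in pBIC (log2 change 1.91 ± 0.19, adjusted p = 1.24e-05). Erythroid cells also express it, and erythroid markers summed to 682 to 1630 CPM in pBIC10 and 36.5 to 693 in pBIC, whose part was not tested. Slc29a1, a nucleoside transporter, stood at 196, 169 and 183 CPM in pBIC10 and 48.5, 57.5 and 84.8 CPM in pBIC (log2 change 1.52 ± 0.21, adjusted p = 1.47e-04). The pBIC level of Slc29a1 was close to the YC mean of 57.9 CPM. Slc15a2, a peptide transporter, stood at 45.9, 44.9 and 61.6 CPM in pBIC10 and 4.93, 2.6 and 1.07 CPM in pBIC (log2 change 4.14 ± 0.56, adjusted p = 2.49e-04). Lower were Slc31a1, the copper importer (32, 32.1 and 33.4 CPM in pBIC10 and 77.7, 83.7 and 99.5 CPM in pBIC, log2 change -1.42 ± 0.19, adjusted p = 1.11e-04), the zinc importer Slc39a4 (2.42, 2.87 and 4.97 CPM in pBIC10 and 16.8, 29.9 and 28.3 CPM in pBIC, log2 change -2.86 ± 0.34, adjusted p = 4.80e-05) and Slc7a7, an exchanger of cationic amino acids (8.91, 5.21 and 8.66 CPM in pBIC10 and 75.4, 83.7 and 33.1 CPM in pBIC, log2 change -3.07 ± 0.34, adjusted p = 3.41e-05).

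Enzymes that build surface glycans changed in both directions, 18 of 73 higher and 16 lower (46.6%, median 0.07). Among the lower ones were a fucosyltransferase and a pair of alpha2,3-sialyltransferases, enzyme types that also make selectin ligands. Fut4, a fucosyltransferase that makes Lewis X, stood at 0.118, 0 and 0.0513 CPM in pBIC10 and 12.8, 14.8 and 17.8 CPM in pBIC, 270-fold lower with a 95% counting interval of 92.1 to 1313, adjusted p = 2.66e-06. St3gal6 stood at 18, 15.1 and 26.2 CPM in pBIC10 and 225, 254 and 156 CPM in pBIC (log2 change -3.42 ± 0.30, adjusted p = 5.64e-06). St3gal4 stood at 12.7, 11.5 and 14.6 CPM in pBIC10 and 47.9, 46.9 and 62.2 CPM in pBIC (log2 change -2.01 ± 0.25, adjusted p = 8.29e-05). Chst1, a sulfotransferase, changed by -3.82 ± 0.58 (adjusted p = 4.99e-04). The sulfotransferase and Fut4 lay above YC in pBIC. In contrast, B4galt2, a galactosyltransferase, stood at 13.6, 12.9 and 13.2 CPM in pBIC10 and 1.72, 1.07 and 1.87 CPM in pBIC (log2 change 3.08 ± 0.32, adjusted p = 1.99e-05). St6galnac6, which adds alpha2,6-linked sialic acid, stood at 22.4, 23.7 and 28.1 CPM in pBIC10 and 5.95, 5.14 and 9.37 CPM in pBIC (log2 change 1.86 ± 0.27, adjusted p = 2.34e-04). Neu1, the lysosomal sialidase, stood at 109, 94.1 and 113 CPM in pBIC10 and 37, 51.2 and 45.9 CPM in pBIC (log2 change 1.24 ± 0.18, adjusted p = 2.34e-04). YC means of St3gal6 and St3gal4 were 34.9 and 6.04 CPM, nearer to pBIC10 than to pBIC.

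**Figure D3:**
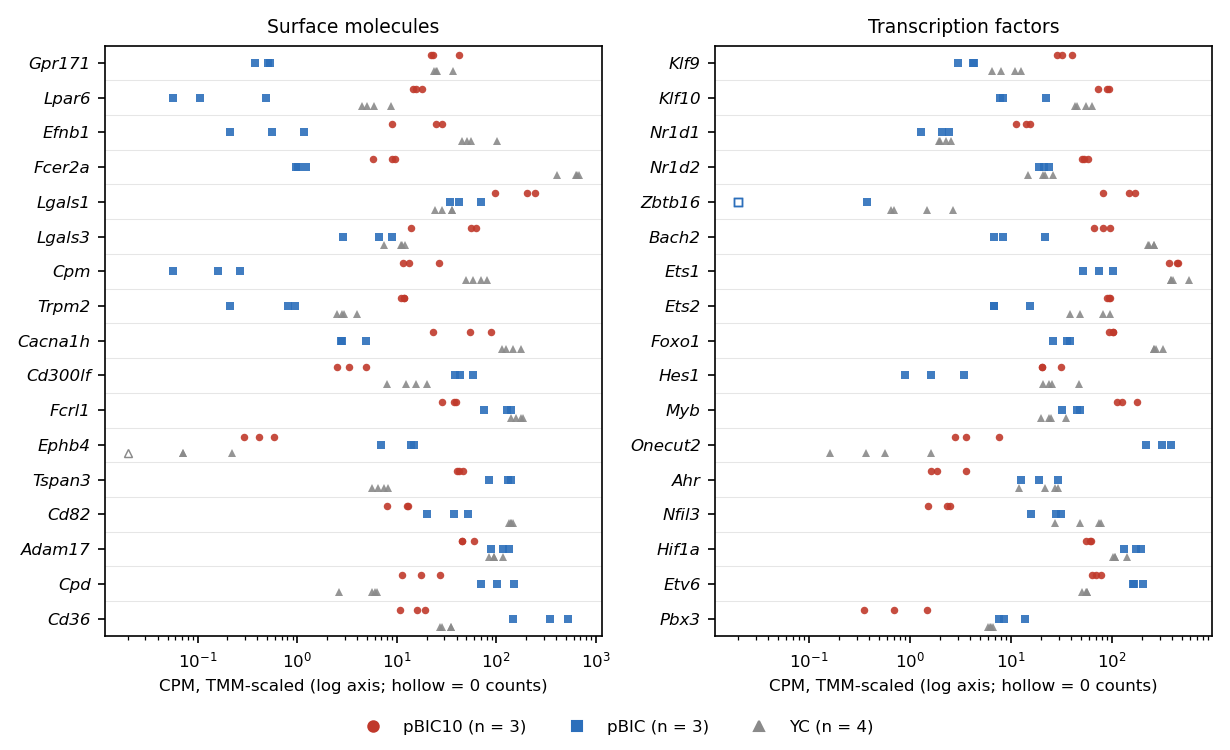
CPM of surface molecules (left) and transcription factors (right), 1 point per library on a log axis (red circles pBIC10, blue squares pBIC, grey triangles YC; hollow points mark 0 counts). For Gpr171, Ets1 and Hes1 the YC points lie beside pBIC10.

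Signalling lists leaned higher in pBIC10. Wnt and beta-catenin genes had 14 of 50 higher and 3 lower (34.0%, median 0.34), and 9 and 6 without pBIC replicate 2. Rnf43, a ubiquitin ligase that removes Frizzled receptors from the surface, stood at 24.8, 27.2 and 23.5 CPM in pBIC10 and 1.34, 0.735 and 3.86 CPM in pBIC (log2 change 3.66 ± 0.45, adjusted p = 7.26e-05). Tle1, a co-repressor that binds TCF factors, stood at 2.36, 4.69 and 8.46 CPM in pBIC10 and 0.268, 0.283 and 0.214 CPM in pBIC (log2 change 4.31 ± 0.49, adjusted p = 3.81e-05). Dvl1, which relays the receptor signal, stood at 155, 145 and 125 CPM in pBIC10 and 59.2, 60.3 and 62.6 CPM in pBIC (log2 change 1.22 ± 0.20, adjusted p = 6.02e-04). In YC all 3 lay above the pBIC libraries. Dkk3 of the secreted Dickkopf family was lower, at 0, 0 and 0.0513 CPM in pBIC10 and 2.84, 8.82 and 22.4 CPM in pBIC, 610-fold lower with a 95% counting interval of 109 to 24133, adjusted p = 5.83e-05. Kremen2, a receptor for Dickkopf proteins, changed by -2.96 ± 0.57 (adjusted p = 0.0018).

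TGF-beta, BMP and activin genes had the highest share called of the lists, 19 of 47 higher and 7 lower (55.3%, median 0.59). Among receptors, Tgfbr3 (betaglycan), which presents TGF-beta to the signalling receptors, stood at 27.7, 25.7 and 27 CPM in pBIC10 and 0.107, 0.283 and 0.375 CPM in pBIC (log2 change 6.67 ± 0.74, adjusted p = 4.46e-05). Acvrl1, a type I receptor, was lower (0.118, 0.0586 and 0.103 CPM in pBIC10 and 1.39, 1.64 and 1.02 CPM in pBIC, log2 change -3.75 ± 0.54, adjusted p = 2.28e-04). Smad7, a SMAD that inhibits the pathway, stood at 10.6, 9.08 and 15 CPM in pBIC10 and 1.29, 0.226 and 0.964 CPM in pBIC (log2 change 3.79 ± 0.42, adjusted p = 3.20e-05). The co-repressor Ski stood at 88.1, 85.3 and 49.9 CPM in pBIC10 and 15.9, 9.38 and 18.8 CPM in pBIC (log2 change 2.34 ± 0.30, adjusted p = 9.72e-05). Smad7 was higher in YC than in either lymphoma group. Ltbp1, which holds latent TGF-beta in the matrix, stood at 12.6, 16.2 and 22.4 CPM in pBIC10 and 1.13, 0.678 and 0.214 CPM in pBIC (log2 change 4.65 ± 0.63, adjusted p = 1.59e-04). Genes known as targets changed in both directions. Klf10, which TGF-beta induces, was higher and is given below with the Kruppel-like factors. Pmepa1, which TGF-beta also induces, was lower at 0.649, 0.234 and 1.23 CPM in pBIC10 and 7.61, 24.2 and 5.62 CPM in pBIC (log2 change -4.11 ± 0.62, adjusted p = 4.07e-04). Id2, a target of BMP and TGF-beta signals, was also lower, at 15.5, 22.4 and 7.997 CPM in pBIC10 and 45.5, 47.8 and 34.8 CPM in pBIC (log2 change -1.48 ± 0.30, adjusted p = 0.00243). Smad1, a BMP effector, changed by -2.95 ± 0.59 (adjusted p = 0.00219).

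PI3K, AKT, mTOR and FOXO genes had 26 of 73 higher and 8 lower (46.6%, median 0.42). Akt1, the central kinase of the pathway, stood at 1635, 1756 and 1286 CPM in pBIC10 and 184, 232 and 317 CPM in pBIC (log2 change 2.67 ± 0.23, adjusted p = 4.97e-06). Foxo1, a factor that AKT keeps out of the nucleus, stood at 103, 103 and 95 CPM in pBIC10 and 36, 26.2 and 38.7 CPM in pBIC (log2 change 1.57 ± 0.18, adjusted p = 3.51e-05). Deptor, an inhibitor of mTOR, stood at 28.3, 28.9 and 20.9 CPM in pBIC10 and 0.643, 0.283 and 0.803 CPM in pBIC (log2 change 5.47 ± 0.59, adjusted p = 2.76e-05). Akt1, Deptor, Rictor, Prkaa1 and Trib1, 5 of the 26, lie in runs of neighbouring genes on chromosomes 12 and 15 that were higher as a whole and are described at the end. Pik3ap1 (BCAP), which links the B cell receptor to PI3K, stood at 92.4, 110.2 and 102 CPM in pBIC10 and 335, 315 and 376 CPM in pBIC (log2 change -1.75 ± 0.16, adjusted p = 8.73e-06). Pik3cg, the gamma catalytic subunit, stood at 12.3, 14.6 and 11.7 CPM in pBIC10 and 61.4, 82.4 and 29.99 CPM in pBIC (log2 change -2.17 ± 0.35, adjusted p = 6.57e-04). The YC levels of both lay near pBIC. Inpp4a, a phosphatase of PI(3,4)P2, stood at 19.5, 23.7 and 14.2 CPM in pBIC10 and 95.8, 62 and 62.2 CPM in pBIC (log2 change -1.94 ± 0.26, adjusted p = 1.31e-04). Sgk3, an AKT-related kinase, stood at 28.4, 29.4 and 31.4 CPM in pBIC10 and 89.8, 58.4 and 88.5 CPM in pBIC (log2 change -1.41 ± 0.20, adjusted p = 1.95e-04).

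MAP kinase genes had 23 of 82 higher and 13 lower (43.9%, median 0.31), and 7 lower without pBIC10 replicate 2. Dusp2, a nuclear phosphatase of ERK and p38, stood at 165, 122 and 201 CPM in pBIC10 and 30.7, 11.2 and 22.1 CPM in pBIC (log2 change 2.93 ± 0.33, adjusted p = 4.65e-05). Rasgrp2, an activator of Rap1, stood at 89.9, 96.2 and 114 CPM in pBIC10 and 26.2, 21.1 and 27.3 CPM in pBIC (log2 change 2.01 ± 0.24, adjusted p = 5.38e-05). Mapk12, which encodes p38 gamma, stood at 30.1, 31.2 and 16.8 CPM in pBIC10 and 0.911, 1.41 and 0.375 CPM in pBIC (log2 change 4.85 ± 0.46, adjusted p = 1.00e-05). Dusp2 and Rasgrp2 were higher still in YC. Map4k3, a kinase of nutrient signalling, was lower, with 0.472, 0.996 and 0.513 CPM in pBIC10 and 11.3, 11.4 and 12.4 CPM in pBIC (log2 change -4.13 ± 0.38, adjusted p = 7.38e-06). The adaptor Grb2 stood at 198, 174 and 129 CPM in pBIC10 and 297, 350.5 and 378 CPM in pBIC (log2 change -1.03 ± 0.18, adjusted p = 8.35e-04). Mapk9, which encodes JNK2, stood at 43.1, 39.4 and 45.1 CPM in pBIC10 and 79.3, 63.9 and 83.4 CPM in pBIC (log2 change -0.83 ± 0.17, adjusted p = 0.0023).

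Calcium, NFAT and PKC genes had 30 of 80 higher and 7 lower (46.2%, median 0.27). Prkce, an isoform of protein kinase C, stood at 99.7, 118 and 95.8 CPM in pBIC10 and 12.2, 4.07 and 8.41 CPM in pBIC (log2 change 3.66 ± 0.32, adjusted p = 5.01e-06). Dgkd, a kinase that removes diacylglycerol, stood at 468, 583 and 523 CPM in pBIC10 and 151, 90.2 and 166 CPM in pBIC (log2 change 1.95 ± 0.21, adjusted p = 2.65e-05). Dgki, of the same kinase family, was lower at 0.177, 0 and 0.154 CPM in pBIC10 and 20.3, 13.1 and 5.03 CPM in pBIC (log2 change -6.75 ± 0.72, adjusted p = 2.39e-05). Dgkd and Dgki changed in opposite directions. Nfatc2, a factor that calcineurin activates, stood at 7.08, 6.21 and 5.49 CPM in pBIC10 and 20.4, 14.8 and 17.1 CPM in pBIC (log2 change -1.48 ± 0.20, adjusted p = 1.56e-04). S100a10, the partner of annexin A2, stood at 282, 280.2 and 166 CPM in pBIC10 and 38.1, 47.8 and 35.9 CPM in pBIC (log2 change 2.58 ± 0.32, adjusted p = 8.08e-05). Atp2a2, the calcium pump of the endoplasmic reticulum, was not called (0.27 ± 0.14, adjusted p = 0.17).

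Among genes of small GTPase signalling, 2 GTPase-activating proteins changed in opposite directions, with Arhgap29 at 14.9, 21.3 and 24.5 CPM in pBIC10 and 0, 0.113 and 0.268 CPM in pBIC (log2 change 7.23 ± 0.66, adjusted p = 6.43e-06). Arhgap5 stood at 1.42, 0.527 and 1.44 CPM in pBIC10 and 19.9, 21.3 and 12.4 CPM in pBIC (log2 change -3.97 ± 0.42, adjusted p = 1.99e-05). For both, YC lay between the lymphoma groups. G protein, RGS and cyclic AMP genes had 22 of 83 higher and 9 lower (37.3%, median 0.25), and 13 higher without pBIC10 replicate 1. Rapgef4 and Rapgef3 (EPAC2 and EPAC1), which cyclic AMP opens to activate Rap, were both higher, with Rapgef4 at 9.61, 10.4 and 11.1 CPM in pBIC10 and 0.429, 0 and 0.321 CPM in pBIC (log2 change 5.31 ± 0.49, adjusted p = 6.84e-06). Rapgef3 stood at 1.89, 2.23 and 1.74 CPM in pBIC10 and 0.161, 0.17 and 0 CPM in pBIC (log2 change 4.07 ± 0.48, adjusted p = 4.68e-05). Prkar2b, a regulatory subunit of protein kinase A, stood at 71.2, 80.1 and 45.4 CPM in pBIC10 and 11.1, 7.69 and 9.16 CPM in pBIC (log2 change 2.81 ± 0.36, adjusted p = 9.78e-05). Both EPAC genes were higher in YC than in either lymphoma group. Pde4d, which breaks down cyclic AMP, was lower at 0.944, 0.41 and 0.564 CPM in pBIC10 and 13.6, 24.3 and 9.1 CPM in pBIC (log2 change -4.60 ± 0.44, adjusted p = 1.01e-05). Gng12, a G protein gamma subunit, stood at 0.354, 0.351 and 1.18 CPM in pBIC10 and 32, 62.2 and 78.8 CPM in pBIC (log2 change -6.47 ± 0.49, adjusted p = 2.94e-06). Rapgef1, a Rap exchange factor that cyclic AMP does not open, stood at 240.4, 245 and 327 CPM in pBIC10 and 819, 628 and 1013 CPM in pBIC (log2 change -1.60 ± 0.20, adjusted p = 7.00e-05). Of these 3 lower genes, Gng12 had the largest change. Gnas, the stimulatory alpha subunit, was not called (0.21 ± 0.15, adjusted p = 0.318).

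Redox, iron and haem genes leaned lower, with 21 of 72 lower and 9 higher (41.7%, median -0.15). The phagocyte NADPH oxidase, which B cells also use to make superoxide, had several subunits lower. Ncf1, the organising subunit p47phox, stood at 13.1, 18 and 21 CPM in pBIC10 and 344, 415 and 175 CPM in pBIC (log2 change -4.16 ± 0.31, adjusted p = 1.70e-06). Cybb, the catalytic subunit gp91phox, stood at 292, 277 and 259 CPM in pBIC10 and 1212, 816 and 888 CPM in pBIC (log2 change -1.82 ± 0.18, adjusted p = 1.21e-05), and its membrane partner Cyba (p22phox) at 343, 337 and 296 CPM in pBIC10 and 526, 711 and 769 CPM in pBIC (log2 change -1.04 ± 0.17, adjusted p = 5.08e-04). Rac2, the GTPase of the complex, stood at 467, 500.1 and 428 CPM in pBIC10 and 874, 1079.6 and 870.4 CPM in pBIC (log2 change -1.02 ± 0.16, adjusted p = 4.78e-04). Cybb and Cyba form the membrane part of the oxidase, which the cytosolic subunits join on activation. The cytosolic subunit Ncf4 (p40phox) was higher at 110.2, 113 and 112 CPM in pBIC10 and 71.1, 86.1 and 30.1 CPM in pBIC (log2 change 0.84 ± 0.29, adjusted p = 0.0418). The call of Ncf4 was lost without pBIC10 replicate 1, 2 or 3 (adjusted p = 0.0853, 0.094 and 0.075). It was also lost without YC replicate 1, 3 or 4 (adjusted p = 0.051, 0.0553 and 0.0573). With the 2 lymphoma groups alone, sex as a covariate or females alone its adjusted p was 0.102, 0.0614 and 0.0973, so its higher level is not a stable call. Rac2 and Ncf4 were looked up as members of the complex after the first 3 were seen. Txnrd1, the cytosolic thioredoxin reductase, stood at 37.2, 32.6 and 33.4 CPM in pBIC10 and 96.1, 123 and 100.1 CPM in pBIC (log2 change -1.63 ± 0.16, adjusted p = 1.17e-05). Txnip, the inhibitor of thioredoxin, stood at 177, 170.4 and 224 CPM in pBIC10 and 81.5, 84.5 and 90.9 CPM in pBIC (log2 change 1.15 ± 0.17, adjusted p = 2.54e-04). Macrophages and neutrophils also express Ncf1 and Cybb, and neutrophil markers summed to 7.48 to 17.4 CPM in pBIC10 and 3.12 to 52.5 in pBIC, whose part was not tested.

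The promoters of Ncf1 and Cybb are shown because both fell and both hold letters read by interferon- and cytokine-activated factors. Each run is the 250 bases before the gene's first listed start in RefSeq's GRCm38.p6, on the gene's strand. Capitals mark matches to GAS (TTCNNNGAA), the site type of STAT dimers, ISRE (GAAA, any 2 bases, GAAA) or AP-1 (TGANTCA), searched on both strands. In Ncf1 the GAS and ISRE matches overlap and start 88 and 82 bases before the start of the gene. Cybb has 3 ISRE matches and 1 AP-1 match. The Ncf1 run is chr5:134229626-134229875 (minus strand) and the Cybb run chrX:9469325-9469574 (minus strand).
Ncf1: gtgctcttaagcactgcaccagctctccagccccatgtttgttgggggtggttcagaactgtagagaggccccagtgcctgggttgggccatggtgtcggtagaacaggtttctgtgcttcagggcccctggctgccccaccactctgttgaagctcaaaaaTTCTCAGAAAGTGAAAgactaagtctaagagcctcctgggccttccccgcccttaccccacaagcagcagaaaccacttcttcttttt
Cybb: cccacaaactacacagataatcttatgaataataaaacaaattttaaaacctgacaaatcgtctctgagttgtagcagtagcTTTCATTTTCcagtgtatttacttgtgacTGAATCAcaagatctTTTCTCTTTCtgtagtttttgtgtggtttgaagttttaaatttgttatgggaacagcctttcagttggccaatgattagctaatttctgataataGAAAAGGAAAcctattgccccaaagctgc
Of 27025 promoters in the table, 7.18% hold a GAS match, 3.04% an ISRE match and 6.87% an AP-1 match in such a window. Among the 11346 promoters of tested genes these shares were 6.0, 2.84 and 4.41%. The promoter of Cyba, a subunit that also fell, held none of these matches. A match describes letters and does not show that a factor binds.

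**Figure D4:**
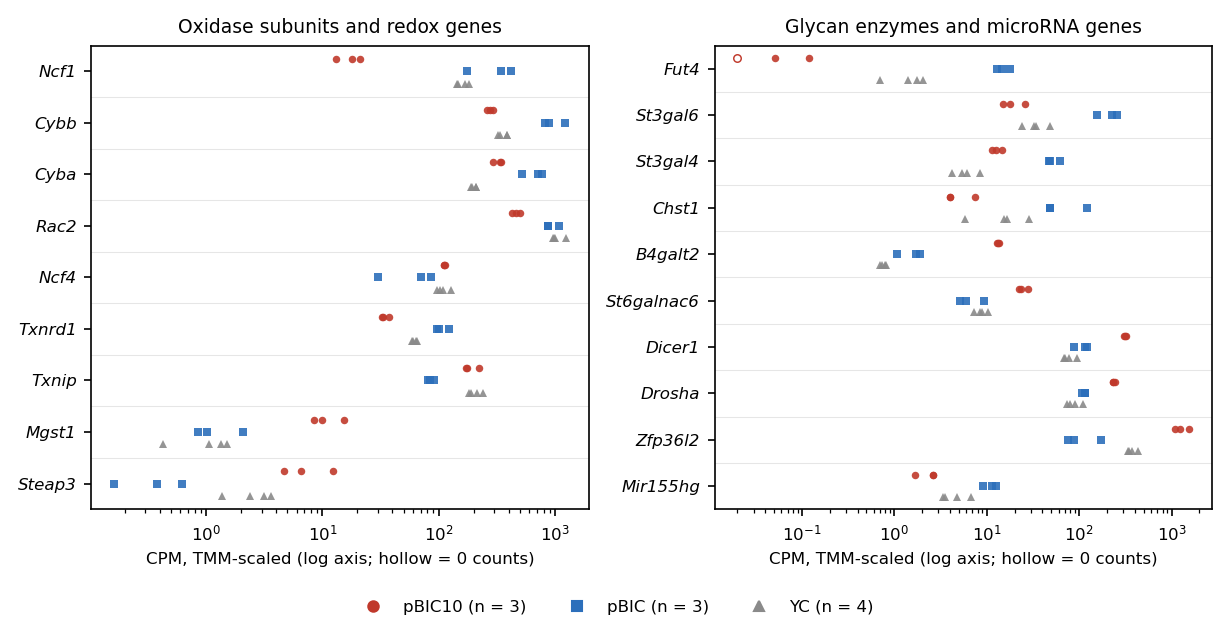
CPM of oxidase subunits and redox genes (left) and of glycan enzymes and microRNA genes (right), 1 point per library on a log axis (red circles pBIC10, blue squares pBIC, grey triangles YC; hollow points mark 0 counts). Ncf1, Cybb, Cyba and Rac2 lie lower in pBIC10 than in pBIC, and Ncf4 higher.

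Lysosome and autophagy genes had 21 of 105 lower and 16 higher (35.2%, median -0.05), and 8 higher without pBIC10 replicate 2. The lower members included proteases. Ctsc (cathepsin C) stood at 153, 131 and 105 CPM in pBIC10 and 538, 547 and 318 CPM in pBIC (log2 change -1.85 ± 0.22, adjusted p = 4.94e-05). Ctsh (cathepsin H) stood at 128, 122 and 95.4 CPM in pBIC10 and 215, 244 and 291 CPM in pBIC (log2 change -1.12 ± 0.18, adjusted p = 4.39e-04). Psap, the precursor of saposins that help break down sphingolipids, stood at 566, 602 and 294 CPM in pBIC10 and 1229, 1046 and 1224 CPM in pBIC (log2 change -1.26 ± 0.23, adjusted p = 0.00136). Uvrag, a subunit of a PI3K complex of autophagy, stood at 96.2, 107 and 94.4 CPM in pBIC10 and 281, 268 and 452 CPM in pBIC (log2 change -1.75 ± 0.22, adjusted p = 6.81e-05). Psap was lowest in pBIC10 replicate 3. Atg2b, a lipid transfer protein of autophagosomes that lies in a chromosome 12 run, stood at 293, 279 and 264 CPM in pBIC10 and 91, 58.4 and 78.7 CPM in pBIC (log2 change 1.87 ± 0.18, adjusted p = 1.00e-05). Fatty acid, sphingolipid and eicosanoid genes had 24 of 103 lower and 21 higher (43.7%, median -0.03). Cd36, a scavenger receptor and fatty acid transporter, stood at 16.1, 19.2 and 10.9 CPM in pBIC10 and 348, 520.4 and 149 CPM in pBIC (log2 change -4.46 ± 0.41, adjusted p = 1.51e-05), with a YC mean of 31.4 CPM. Macrophages express it too. The marker sum given above was also lower in pBIC10, and its part in the result was not tested. Fabp4, a fatty acid carrier, stood at 20.7, 17.7 and 20.04 CPM in pBIC10 and 0.107, 0.339 and 0.375 CPM in pBIC (log2 change 6.12 ± 0.49, adjusted p = 2.68e-06). Elovl6, which elongates fatty acids, stood at 34.7, 35.2 and 39.9 CPM in pBIC10 and 4.56, 2.15 and 6.32 CPM in pBIC (log2 change 3.07 ± 0.33, adjusted p = 2.39e-05). The desaturase Fads1 stood at 15.6, 14.1 and 16.4 CPM in pBIC10 and 42.6, 47.4 and 53.2 CPM in pBIC (log2 change -1.63 ± 0.21, adjusted p = 1.06e-04). Fabp4 was near 0 in pBIC and in YC. In sphingolipid metabolism, the sphingomyelinase Smpd3 stood at 59.8, 50.4 and 31.7 CPM in pBIC10 and 2.47, 0.961 and 1.02 CPM in pBIC (log2 change 4.99 ± 0.43, adjusted p = 4.93e-06). The ceramide synthase Cers4 stood at 8.2, 8.84 and 8.46 CPM in pBIC10 and 1.5, 0.904 and 0.535 CPM in pBIC (log2 change 3.11 ± 0.32, adjusted p = 1.74e-05). Lpin2, which makes diacylglycerol, stood at 15.2, 17.7 and 17.1 CPM in pBIC10 and 87.5, 64.3 and 78.3 CPM in pBIC (log2 change -2.20 ± 0.21, adjusted p = 8.45e-06).

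DNA repair genes had a share called below the background, 23 of 105 higher and 5 lower (26.7%, median 0.14), and 9 lower without pBIC replicate 3. Parp1, a sensor of strand breaks, stood at 665, 824 and 779 CPM in pBIC10 and 301, 316 and 272 CPM in pBIC (log2 change 1.35 ± 0.16, adjusted p = 4.27e-05), while Parp3, of the same family, stood at 12.9, 14.2 and 8.1 CPM in pBIC10 and 69, 58.3 and 57.7 CPM in pBIC (log2 change -2.39 ± 0.23, adjusted p = 1.01e-05). Neil1, a base excision glycosylase, stood at 24.7, 27.6 and 16.9 CPM in pBIC10 and 3.54, 3.56 and 5.89 CPM in pBIC (log2 change 2.41 ± 0.26, adjusted p = 2.75e-05), and YC lay far above both at a mean of 432 CPM.

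The circadian clock is a loop in which CLOCK and BMAL1 drive the genes of their own repressors through E-box sites. Of 20 clock genes, 7 were higher and 3 lower (50%, median 0.45). The higher ones included the repressor genes Cry1, Cry2, Per1, Nr1d1 and Nr1d2, and Csnk1e, a kinase of PER proteins. Nr1d1 (REV-ERB alpha) stood at 11.3, 14.1 and 15.7 CPM in pBIC10 and 2.47, 1.3 and 2.09 CPM in pBIC (log2 change 2.80 ± 0.33, adjusted p = 4.94e-05). Nr1d2 stood at 58, 53.4 and 50.9 CPM in pBIC10 and 19.2, 21.6 and 24.2 CPM in pBIC (log2 change 1.32 ± 0.21, adjusted p = 5.36e-04). Both are nuclear receptors that repress the BMAL1 gene. Cry1 stood at 53.3, 52.4 and 43.9 CPM in pBIC10 and 24, 14.2 and 21.5 CPM in pBIC (log2 change 1.33 ± 0.22, adjusted p = 6.70e-04). Cry2 stood at 44.8, 46.7 and 38.7 CPM in pBIC10 and 11.8, 11.6 and 18.7 CPM in pBIC (log2 change 1.62 ± 0.30, adjusted p = 0.00118). Nfil3, a repressor of D-box genes, was lower at 2.54, 1.52 and 2.36 CPM in pBIC10 and 15.8, 28.1 and 31.5 CPM in pBIC (log2 change -3.55 ± 0.42, adjusted p = 7.20e-05). Bhlhe40, a repressor at E-boxes, was also lower, at 32.4, 22.2 and 23.9 CPM in pBIC10 and 121, 51.9 and 92.3 CPM in pBIC (log2 change -1.75 ± 0.37, adjusted p = 0.00417). Arntl, which encodes BMAL1, stood at 3.42, 2.58 and 3.79 CPM in pBIC10 and 9.27, 3.67 and 5.94 CPM in pBIC (log2 change -0.95 ± 0.31, adjusted p = 0.0343), with overlap of the groups. Its call was lost without pBIC10 replicate 1 or 2 or pBIC replicate 1 (adjusted p = 0.0779, 0.134 and 0.148). It was also lost without YC replicate 1, 2 or 4 (adjusted p = 0.0513, 0.0558 and 0.0519). Under limma-voom, the 2 lymphoma groups alone or females alone its adjusted p was 0.0889, 0.138 and 0.0621. The call of Per1 was lost with no filter on low counts (adjusted p = 0.0638). The hour at which spleens were taken is not given in the sources used here, and its part was not tested.

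The Cry1 promoter is printed as the clock gene with an E-box (CACGTG, in capitals) 60 bases before its start, at chr10:85185055-85185304 of RefSeq's GRCm38.p6, minus strand.
Cry1: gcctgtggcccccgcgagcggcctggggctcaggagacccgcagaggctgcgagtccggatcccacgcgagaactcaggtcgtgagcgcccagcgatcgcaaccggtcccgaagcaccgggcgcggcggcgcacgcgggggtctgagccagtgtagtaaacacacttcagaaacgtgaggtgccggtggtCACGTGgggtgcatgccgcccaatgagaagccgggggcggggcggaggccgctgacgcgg
Of the 7 clock genes called higher, 6 had a promoter in the table and 2 of these held an E-box, against 907 of 11346 promoters of tested genes (7.99%).

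Among transcription factors, Kruppel-like and SP factors, which bind GC-rich boxes, had 8 of 17 higher and 0 lower (47.1%, median 0.73). At an unadjusted p under 0.05 edgeR had 1 lower, and DESeq2 and limma-voom each called 1 lower. Without pBIC replicate 1 the lower count was 1. Klf9 stood at 32.5, 29.1 and 40.3 CPM in pBIC10 and 4.34, 3.05 and 4.23 CPM in pBIC (log2 change 3.13 ± 0.30, adjusted p = 1.00e-05). Klf13 stood at 181, 194 and 173 CPM in pBIC10 and 69.8, 52.1 and 111 CPM in pBIC (log2 change 1.24 ± 0.23, adjusted p = 0.00143). Klf7 stood at 32, 41.9 and 10.9 CPM in pBIC10 and 6.54, 0.622 and 2.14 CPM in pBIC (log2 change 3.18 ± 0.67, adjusted p = 0.00419). Klf7 was the most uneven of these, with pBIC10 replicate 3 the lowest of its group. Klf10, which TGF-beta induces and which lies in a chromosome 15 run, stood at 91.1, 73.5 and 93.8 CPM in pBIC10 and 22.5, 8.42 and 7.82 CPM in pBIC (log2 change 2.74 ± 0.36, adjusted p = 1.42e-04). Klf4, Klf11, Sp1 and Sp2 were the other 4. Sp2 lost its call without pBIC10 replicate 2 (adjusted p = 0.0556) and with the 2 lymphoma groups alone (0.0502). Klf4 lost its call without pBIC10 replicate 1 or 2 or pBIC replicate 3 (adjusted p = 0.0834, 0.0687 and 0.0653) and with no filter on low counts (0.0902). Klf9 is also a gene that glucocorticoids induce, and the glucocorticoid receptor Nr3c1 stood at 138, 141 and 113 CPM in pBIC10 and 62, 46.5 and 44.9 CPM in pBIC (log2 change 1.35 ± 0.19, adjusted p = 1.69e-04). A part of glucocorticoids in the Klf9 level was not tested. The Klf9 promoter is given for its GAS match 33 bases and AP-1 match 89 bases before the start, in capitals (chr19:23140976-23141225, plus strand, RefSeq's GRCm38.p6).
Klf9: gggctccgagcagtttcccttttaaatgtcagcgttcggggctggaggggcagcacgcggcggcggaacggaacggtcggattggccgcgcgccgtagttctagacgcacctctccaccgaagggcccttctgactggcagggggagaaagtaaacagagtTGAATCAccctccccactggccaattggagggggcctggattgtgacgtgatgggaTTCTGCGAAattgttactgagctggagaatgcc
It has no match to the KLF box searched (CCACACCC), which 3.19% of all promoters and 3.43% of those of tested genes hold.

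Nuclear receptors had 7 of 24 higher and 3 lower (41.7%, median 0.42). Besides Nr1d1, Nr1d2 and Nr3c1, the thyroid hormone receptor Thra was higher at 17.5, 19 and 13.5 CPM in pBIC10 and 2.14, 1.75 and 4.82 CPM in pBIC (log2 change 2.51 ± 0.40, adjusted p = 4.81e-04). Rxra, the shared partner of many of them, was lower at 0.826, 0.644 and 0.666 CPM in pBIC10 and 3.22, 3.28 and 3.16 CPM in pBIC (log2 change -2.17 ± 0.38, adjusted p = 8.59e-04). The retinoic acid receptor Rarg was also lower, at 1.003, 0.937 and 3.49 CPM in pBIC10 and 6.16, 9.44 and 11.2 CPM in pBIC (log2 change -2.29 ± 0.52, adjusted p = 0.00475). Ahr, the bHLH receptor of aryl hydrocarbons, stood at 1.89, 1.64 and 3.64 CPM in pBIC10 and 29.4, 19.2 and 12.7 CPM in pBIC (log2 change -3.09 ± 0.43, adjusted p = 1.99e-04). Its relative Hif1a, the oxygen-regulated factor, stood at 63, 60.9 and 55.7 CPM in pBIC10 and 174, 194 and 133 CPM in pBIC (log2 change -1.48 ± 0.19, adjusted p = 8.37e-05).

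Homeobox factors had 16 of 44 higher and 7 lower (52.3%, median 0.38), and 4 lower without pBIC10 replicate 1. Onecut2, a factor known from liver and neurons, was lower at 7.73, 2.81 and 3.64 CPM in pBIC10 and 384, 314 and 221 CPM in pBIC (log2 change -6.02 ± 0.53, adjusted p = 1.21e-05), with a YC mean of 0.685 CPM. Cux1 stood at 115, 130.3 and 102 CPM in pBIC10 and 51.5, 33 and 53.3 CPM in pBIC (log2 change 1.33 ± 0.20, adjusted p = 2.50e-04). Pbx3, a partner of HOX proteins, stood at 0.354, 0.703 and 1.49 CPM in pBIC10 and 8.58, 7.63 and 13.8 CPM in pBIC (log2 change -3.53 ± 0.46, adjusted p = 9.67e-05). Pou2f2 (OCT2), a B cell factor, was not called (0.24 ± 0.26, adjusted p = 0.517). ETS factors had 6 of 20 higher and 4 lower (50%, median 0.42). Ets1, which restrains plasma cell differentiation, stood at 451, 442 and 374 CPM in pBIC10 and 104, 51.7 and 75.2 CPM in pBIC (log2 change 2.46 ± 0.25, adjusted p = 1.79e-05). Ets2 stood at 97.6, 95 and 89.3 CPM in pBIC10 and 15.5, 6.78 and 6.85 CPM in pBIC (log2 change 3.27 ± 0.40, adjusted p = 1.01e-04). Etv6, a repressor, stood at 78.6, 69.8 and 63.5 CPM in pBIC10 and 166, 163 and 207 CPM in pBIC (log2 change -1.34 ± 0.16, adjusted p = 5.39e-05).

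bHLH factors had 12 of 42 higher and 7 lower (45.2%, median 0.37). Hes1, a target of Notch, stood at 20.3, 20.5 and 31.3 CPM in pBIC10 and 3.48, 1.64 and 0.91 CPM in pBIC (log2 change 3.57 ± 0.46, adjusted p = 1.34e-04). The inhibitors of E proteins split, with Id3 at 22.6, 24.5 and 30.3 CPM in pBIC10 and 4.77, 7.74 and 11.1 CPM in pBIC (log2 change 1.71 ± 0.31, adjusted p = 0.00107) and Id2 lower as given above. Tcf4 (E2-2), an E protein, stood at 189.8, 193 and 132 CPM in pBIC10 and 368, 415 and 290.2 CPM in pBIC (log2 change -1.06 ± 0.20, adjusted p = 0.00129). Myc stood at 1615, 1319.7 and 3204 CPM in pBIC10 and 683, 688 and 855 CPM in pBIC (log2 change 1.46 ± 0.33, adjusted p = 0.00552), with pBIC10 replicate 3 the highest library and no overlap. Of SOX, TCF, RUNX, GATA, MEF2 and Ikaros factors, 9 of 47 were higher and 6 lower (31.9%, median 0.11). Myb, a factor of immature haematopoietic cells, stood at 126, 113 and 177 CPM in pBIC10 and 45.2, 32.6 and 48.2 CPM in pBIC (log2 change 1.72 ± 0.25, adjusted p = 2.10e-04). Mef2d stood at 443, 541 and 462 CPM in pBIC10 and 188, 102 and 198 CPM in pBIC (log2 change 1.57 ± 0.23, adjusted p = 2.44e-04). Both had pBIC replicate 2 as the lowest library. Bcl11a stood at 114, 119 and 104 CPM in pBIC10 and 229, 159.6 and 208 CPM in pBIC (log2 change -0.82 ± 0.17, adjusted p = 0.00255). Eomes and Tox, factors of T and NK cells, changed by -2.58 ± 0.66 (adjusted p = 0.0101) and -2.35 ± 0.51 (adjusted p = 0.00364). The NK marker sum was 1.52 to 4.27 CPM in pBIC10 and 9.58 to 30.9 in pBIC. Eomes itself belongs to the 10 NK markers of that sum and was counted among the 4 called lower. The part of NK cells in Eomes and Tox was not tested.

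BTB zinc finger factors had 10 of 46 higher and 1 lower (23.9%, median 0.24), and 2 were lower without pBIC replicate 2 or 3. Zbtb16 (PLZF), a factor of innate-like lymphocytes, stood at 149, 169 and 83 CPM in pBIC10 and 0.375, 0 and 0 CPM in pBIC (log2 change 9.96 ± 0.80, adjusted p = 6.33e-06), with a YC mean of 1.39 CPM. Bach2, which holds back plasma cell differentiation, stood at 67.8, 82.1 and 97.4 CPM in pBIC10 and 21.9, 6.84 and 8.35 CPM in pBIC (log2 change 2.74 ± 0.36, adjusted p = 1.63e-04), below its YC mean of 247 CPM. Zbtb38 was the lower member, at 33, 29.1 and 28.1 CPM in pBIC10 and 120.2, 71.1 and 41.3 CPM in pBIC (log2 change -1.37 ± 0.30, adjusted p = 0.00402). Forkhead factors had 5 of 17 higher and 0 lower (29.4%, median 0.42). At an unadjusted p under 0.05 edgeR had 1 lower, and DESeq2 and limma-voom called 0 lower. Without pBIC replicate 2, 1 was lower. Foxn3 stood at 282, 265 and 271 CPM in pBIC10 and 63.8, 71.3 and 110.3 CPM in pBIC (log2 change 1.74 ± 0.22, adjusted p = 7.43e-05) and lies in a chromosome 12 run. Foxo6 stood at 16.6, 16.1 and 5.64 CPM in pBIC10 and 0, 0 and 0.0536 CPM in pBIC, 685-fold higher with a 95% counting interval of 122 to 27077, adjusted p = 6.33e-06. bZIP factors had 6 of 38 higher and 6 lower (31.6%, median -0.11). The higher count was 3 without pBIC replicate 2 or 3 and 2 without pBIC10 replicate 1 or 2. Atf5 was lower at 9.08, 9.55 and 7.89 CPM in pBIC10 and 31.4, 35.5 and 27.8 CPM in pBIC (log2 change -1.83 ± 0.22, adjusted p = 5.61e-05). Creb3l2, a membrane-bound factor of secretory cells, was also lower, at 1.83, 0.996 and 3.79 CPM in pBIC10 and 23.7, 17.4 and 18.9 CPM in pBIC (log2 change -3.16 ± 0.53, adjusted p = 8.61e-04). Atf4, the effector of the integrated stress response, was not called (0.19 ± 0.17, adjusted p = 0.434).

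The list of microRNA host genes and microRNA machinery also held general RNA-binding proteins, among them Rbm47. It had 16 of 53 higher and 7 lower (43.4%, median 0.18). Drosha and Dicer1, the nuclear and cytoplasmic RNases that cut microRNA precursors, were both higher and lie in the runs on chromosomes 15 and 12. Drosha stood at 232, 242 and 233 CPM in pBIC10 and 115, 109 and 115 CPM in pBIC (log2 change 1.06 ± 0.17, adjusted p = 4.83e-04). Dicer1 stood at 306, 319.7 and 313 CPM in pBIC10 and 121, 88.1 and 116 CPM in pBIC (log2 change 1.53 ± 0.18, adjusted p = 4.42e-05). Zfp36l2, which binds AU-rich elements and speeds mRNA decay, stood at 1229.9, 1098 and 1562 CPM in pBIC10 and 89.1, 75.1 and 172 CPM in pBIC (log2 change 3.53 ± 0.29, adjusted p = 3.87e-06). Zfp36l2 lay below YC in pBIC and above it in pBIC10. Mir155hg, the host of miR-155, stood at 2.6, 2.64 and 1.69 CPM in pBIC10 and 11.5, 12.5 and 9.05 CPM in pBIC (log2 change -2.26 ± 0.36, adjusted p = 4.35e-04). Mir22hg, that of miR-22, stood at 0.826, 1.29 and 0.615 CPM in pBIC10 and 5.15, 2.996 and 2.46 CPM in pBIC (log2 change -1.96 ± 0.46, adjusted p = 0.0061). Poly(A) RNA gives the host transcript, and mature microRNAs were not measured. The 2 mature arms are printed because their hosts were lower, with the seed (bases 2 to 8) in capitals, from RefSeq's GRCm38.p6 (chr16:84714143-84714165 for miR-155-5p and chr11:75463772-75463793 for miR-22-3p, both plus strand). Their seeds differ.
miR-155-5p: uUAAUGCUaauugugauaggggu
miR-22-3p: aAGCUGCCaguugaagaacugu
Among RNA-binding proteins, Rbm47 stood at 1.71, 1.35 and 2.56 CPM in pBIC10 and 54.1, 52.5 and 41 CPM in pBIC (log2 change -4.70 ± 0.41, adjusted p = 5.08e-06). Igf2bp3, an oncofetal stabiliser of mRNAs, stood at 1.36, 0.703 and 2.1 CPM in pBIC10 and 26.8, 23.2 and 7.39 CPM in pBIC (log2 change -3.77 ± 0.54, adjusted p = 2.67e-04).

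Over whole sets, promoters of genes called lower held ISRE matches in 4.84% of 1715 and kB matches (GGGAA, any 1 base, TTCC, read by NF-kB) in 1.05%. The promoters of all 11346 tested genes held them in 2.84% and 0.361%, and those of 1938 genes called higher in 2.43% and 0.206%. GAS matches stood in 6.65% of the lower, 5.26% of the higher and 6% of the tested genes. E-boxes stood in 8.28, 9.03 and 7.99% of them. These shares describe letters in 250-base windows, and no test was made of them.

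Genes along chromosomes 12 and 15 were ordered by RefSeq symbols and described after their values were seen. At the distal end of chromosome 12, the 21 named genes from Inf2 to Tmem121, beside the immunoglobulin heavy chain genes, were nearly all higher in pBIC10. Of the 21, 20 were called higher, with a median log2 fold change of 2.94. Pld4 was the exception (1.16 ± 0.45, adjusted p = 0.0728, and 4.19e-04 without pBIC10 replicate 3). Mta1, a subunit of a chromatin remodelling complex, stood at 1804, 1801 and 1551 CPM in pBIC10 and 215, 232 and 282 CPM in pBIC (log2 change 2.82 ± 0.18, adjusted p = 5.26e-07). Brf1, a factor of RNA polymerase III, stood at 636, 643 and 495 CPM in pBIC10 and 106, 56.5 and 92 CPM in pBIC (log2 change 2.80 ± 0.24, adjusted p = 4.93e-06). Jag2, a Notch ligand, stood at 25.1, 25.5 and 31.7 CPM in pBIC10 and 1.72, 1.64 and 3.86 CPM in pBIC (log2 change 3.51 ± 0.35, adjusted p = 1.50e-05). The pBIC10 libraries were alike for these genes. Gpr132, a receptor tied to lysophospholipids, stood at 287, 320.4 and 302 CPM in pBIC10 and 64.1, 89.8 and 72.5 CPM in pBIC (log2 change 2.01 ± 0.19, adjusted p = 7.38e-06). Crip1, a LIM protein, stood at 3271, 3008 and 569 CPM in pBIC10 and 16, 24.4 and 34.8 CPM in pBIC (log2 change 6.51 ± 0.64, adjusted p = 2.71e-05). Crip1 was uneven, with replicate 3 the lowest of pBIC10. Against the YC mean the 21 genes had median log2 differences of 2.48, 2.5 and 2.14 in the pBIC10 libraries and of -0.62, -0.85 and -0.55 in the pBIC libraries.

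On either side of this run the levels differed. Of 83 named genes before it, from Eml5 to Rd3l, 50 were higher and 1 lower, with a median of 0.90. Rcor1, a co-repressor subunit, stood at 423, 421 and 325 CPM in pBIC10 and 88.3, 60.8 and 72 CPM in pBIC (log2 change 2.40 ± 0.20, adjusted p = 4.00e-06). Traf3, an inhibitor of noncanonical NF-kB signalling, stood at 283, 300.5 and 271 CPM in pBIC10 and 108, 58 and 129 CPM in pBIC (log2 change 1.54 ± 0.23, adjusted p = 3.42e-04). Of the 7 named genes past the heavy chain genes, from Zfp386 to Sp4, 2 were higher and 1 lower, with a median of -0.36. The whole of chromosome 12 had 24.4% of its tested genes higher and 19.9% lower. In windows of 25 neighbouring genes at its start, from Rab10os to Gm9370, medians were -0.53, -0.51, -0.76, -0.61 and -0.65. Windows from there up to Eml5 ranged in median from -0.79 to 0.81.

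Chromosome 15 showed 2 such runs, from its first genes up to Myc and Pvt1. Of the 36 named genes from Nudcd1 to Pvt1, 34 were called higher and 2 lower, with a median of 1.66. Rad21, a cohesin subunit, stood at 1004, 962 and 968 CPM in pBIC10 and 195, 206 and 212 CPM in pBIC (log2 change 2.26 ± 0.18, adjusted p = 2.66e-06). Taf2, a subunit of TFIID, stood at 321, 315 and 308 CPM in pBIC10 and 67.4, 53.8 and 49.4 CPM in pBIC (log2 change 2.47 ± 0.18, adjusted p = 1.61e-06). Both were nearly even within each group. Mtss1, a membrane-bending scaffold of B cells, stood at 605, 658 and 498 CPM in pBIC10 and 9.17, 1.36 and 19.5 CPM in pBIC (log2 change 5.87 ± 0.68, adjusted p = 8.50e-05). Trib1, a pseudokinase, stood at 509.9, 500.5 and 516 CPM in pBIC10 and 35.5, 22.4 and 133 CPM in pBIC (log2 change 2.99 ± 0.54, adjusted p = 0.00151). For Trib1, pBIC replicate 3 stood apart from the other two. Sqle, an enzyme of cholesterol synthesis, stood at 125, 111 and 91.2 CPM in pBIC10 and 28, 13.8 and 31.8 CPM in pBIC (log2 change 2.15 ± 0.27, adjusted p = 8.20e-05). The lower genes of the run were Sntb1 and Ext1, and the call of Ext1 was lost without pBIC10 replicate 1 or 2 or pBIC replicate 2 (adjusted p = 0.0595, 0.0599 and 0.0677) and with no filter on low counts (0.0889). Against YC the 36 genes had medians of 2.09, 2.05 and 1.86 in pBIC10 and of -0.08, 0.15 and 0.25 in pBIC. Of 76 named genes before Nudcd1, 53 were higher and 8 lower, with a median of 0.99. The second run ended between Pvt1 and Cyrib. Cyrib stood at 197, 167 and 141 CPM in pBIC10 and 236, 279 and 255 CPM in pBIC (log2 change -0.61 ± 0.17, adjusted p = 0.0141), with its call lost without pBIC10 replicate 2 or 3 (adjusted p = 0.055 and 0.0632) and with females alone (0.0679). Of the 315 named genes from Cyrib to the end of the chromosome, 57 were higher and 66 lower, with a median of -0.09.

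The 4 runs held 216 named genes, of which 157 were called higher, where 15.6% of all genes tested were. These 157 were 5.68% of the 2766 genes called higher. Among 576 windows of up to 25 neighbouring genes over the genome, 7 had a median log2 fold change of at least 1, of which 6 lay on these 2 chromosomes and 1 on chromosome 4, and 0 had a median of -1 or less. The central 95% of windows spanned -0.61 to 0.70. By whole chromosome, medians ranged from -0.31 on chromosome 16 to 0.33 on chromosome 1. DNA copy number and chromosome structure were not measured here, and their part in these runs was not tested. Genes of the runs named above under their pathways (Akt1, Deptor, Rictor, Prkaa1, Trib1, Myc, Klf10, Dicer1, Drosha, Atg2b, Foxn3, Clmn and Dlk1) carry the same position.

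**Figure D5:**
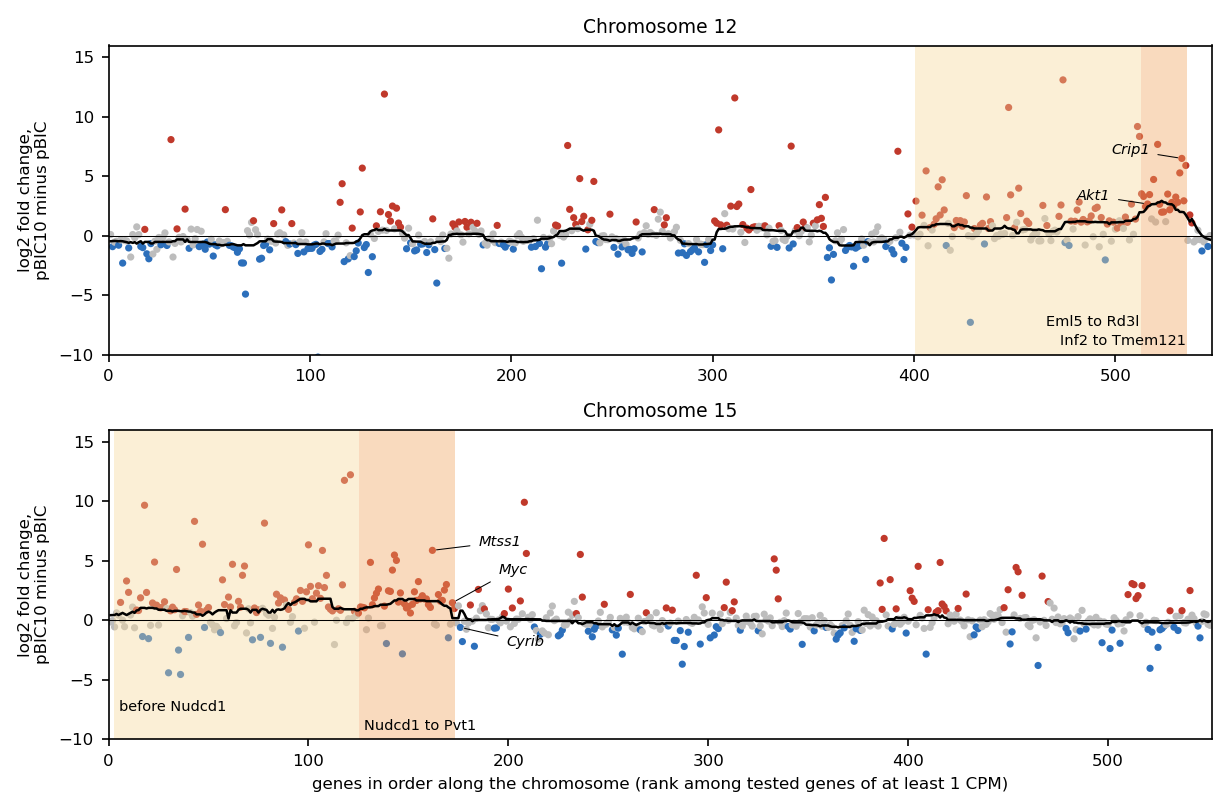
Log2 fold change of pBIC10 minus pBIC (y axis) for tested genes of at least 1 CPM in their order along chromosomes 12 and 15 (x axis, rank), red called higher, blue called lower, grey not called; the black line is the median of 25 neighbours and shading marks the runs named. The line rises at the end of chromosome 12 and falls to about 0 after Myc on chromosome 15.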

How the data were processed

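RNA-seq read counts per gene were analysed for 10 libraries (50-nt single-end reads of poly(A) RNA). The authors deposited raw counts for 46316 genes, and featureCounts, FastQC and GRCm39 are named, with no order, per the submitters' processing notes. For the aligner, annotation, strand setting and tool releases, nothing is stated in the sources used here. Genes kept by edgeR's filterByExpr (17718) were fitted with TMM scaling and glmQLFit over all 3 groups (edgeR 4.0.16, R 4.3.3), so YC shares in the estimate of spread, and glmQLFTest gave pBIC10 minus pBIC with Benjamini-Hochberg adjustment. The biological coefficient of variation was 0.289. Tested on simulated counts (17223 genes), the fit found 75 of 100 genes changed 4-fold and 21 of 100 changed 2-fold. It called 98 genes there, against 5440 in the data, so the cutoff was stricter and these shares do not give those of the real comparison.

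The members and lists were chosen with earlier results of these data known. The rule for named genes took the 15 largest called changes in each direction (at least 5 CPM in the higher group, no overlap between groups), up to 4 called members of each list per direction by smallest adjusted p (at least 1 CPM, no overlap) and the most abundant member of a list that was not called. Immunoglobulin, T cell receptor, mitochondrial and predicted genes were left out, and the text gives part of the genes that qualified. Some genes and 1 gene list are not reported here. Beyond this rule, further genes of the oxidase, the clock, the Kruppel-like list and the chromosome runs were chosen after their values were seen. A gene with 0 counts in a group was set against 3 counts over that group, and ratios of few counts have exact 95% intervals, both for counting error only. Promoters (250 bases) and microRNAs came from RefSeq tables of GRCm38.p6, and gene order along chromosomes from the same build by symbol (17398 genes matched). Alternatives covered scaling, filters, DESeq2 1.42.0, limma-voom (limma 3.58.1), the 2 lymphoma groups alone, sex, thresholds and leaving out each library.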

Additional observations from a re-analysis of the deposited data

How the results depend on the processing

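Under 23 alternatives the total of 5440 called genes stayed within 1.5 times of itself except with stricter thresholds. A test against a 1.5-fold change called 2754 genes (1543 higher, 1211 lower), and an adjusted p under 0.01 called 3145 (1656 higher, 1489 lower). The 2 lymphoma groups alone gave 3810 and DESeq2 6017. Leaving out 1 library gave 3884 to 6052 called genes (2072 to 3096 higher, 1812 to 2956 lower). Of 207 named genes that were called, 189 kept their call under every alternative, and 199 did when the 2 stricter thresholds are set aside. Klre1, an NK cell marker near 0 counts in the lymphomas, had log2 fold changes of -3.01 to 0.00 when 1 lymphoma library was left out (0.00 without pBIC replicate 2), and no other named gene changed sign. The median of all genes stayed between -0.03 and 0.03.

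Leaving out 1 lymphoma library gave medians of 2.86 to 3.04 for Inf2 to Tmem121, 1.65 to 1.73 for Nudcd1 to Pvt1, 0.30 to 0.37 for chromosome 1 and -0.34 to -0.25 for chromosome 16. The runs and their alternatives were chosen after seeing the data. No paired analysis was possible because replicate numbers were given in accession order and pair no libraries.

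At this depth 0 counts in a lymphoma library allow up to 0.157 to 0.175 CPM. With 3 libraries a group, changes of 2-fold can be missed, so a gene not called is not shown to be equal. In simulated counts 21 of 100 such changes were called, but 98 of 17223 genes were called there, against 5440 of 17718 here. Fewer calls make the Benjamini-Hochberg cutoff stricter, so the simulated share does not give that of this comparison. IL-10 status, leading V segment and series cannot be told apart, and sex differs in 1 pBIC10 library.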
